A study of Homo sapiens with 8 samples.

Results

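In MDA-MB-231 cells 26 of 38 HOX genes (68.4%) had no peak of acetylated histone H3 lysine 27 (H3K27ac) within 1 kb of a start, with or without ARID1A, against 35.5% of all protein-coding genes. The number without a peak was 28 by 5′ ends at 1 kb and 13 with a window of 5 kb. The shares of all genes under those 2 settings are not given here. Over the 4 HOX clusters with 50 kb on either side, peaks covered 4.56% of the sequence in control and 4.53% in ARID1A knockout cells. The median around single protein-coding genes was 4.69% and 4.61%. That is a median of shares and not a share pooled over windows, so the 2 measures differ. MDA-MB-231 is an established line of triple-negative breast cancer, and ARID1A belongs to the BAF form of the SWI/SNF complex, which moves nucleosomes. Peaks were taken from the HOXA cluster on chromosome 7, HOXB on chromosome 17, HOXC on chromosome 12 and HOXD on chromosome 2, each from 50 kb below the lowest to 50 kb above the highest of the HOX genes studied. Those 38 genes comprised 10 of HOXA, 10 of HOXB, 9 of HOXC and 9 of HOXD, out of 19974 protein-coding genes. The windows held 32 of the 48662 merged regions of the genome, where a region joins peaks of either list that overlap by at least 1 bp.

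The study immunoprecipitated chromatin of 2 groups, control cells and ARID1A knockout cells of this line, and sequenced an input of each, with 2 libraries in each of the 4 groups. The labels gave neither the clonal or pooled origin of the knockout cells nor whether the libraries of a group came from separate cultures. Titles and antibody labels gave the mark as H3K27ac, but the protocol text named an H3K4me3 antibody, so the mark is called H3K27ac here on the strength of the titles and antibody labels. One peak list per genotype was used, 39797 peaks for control and 42552 for knockout, so no replicate spread was at hand and the genotypes could not be tested against each other. The fold enrichment of a peak is relative to the background of its own list. Folds given below for both lists rank peaks within a list and do not measure a change. The depth of the libraries was not given in the sources used here. All 7 markers of mesenchymal-like breast cancer cells, among them VIM, AXL and CD44, had a peak within 1 kb of a start in both lists. Of 7 luminal markers, 5 (ESR1, GATA3, FOXA1, KRT19 and XBP1) also had one in both lists, and PGR and SPDEF had none. Over all protein-coding genes the share with a start peak in both lists was 61.3%.

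HOX genes encode homeodomain transcription factors that give cells their position along the body axis. Within a cluster they lie in the order in which they act, from anterior genes with low numbers to posterior genes with high numbers, and genes of the same number in different clusters are paralogs. Silent HOX genes are held by Polycomb complexes, one of which methylates the lysine that H3K27ac marks on active chromatin, and differentiated and tumour cells keep only part of the clusters active. H3K27ac at a start or at a distal element is a sign of regulatory activity and not a measure of the transcript.

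The promoters below, from 250 bases before to 50 after a RefSeq start on GRCh38.p14, are those of the members whose start peaks are described in most detail: the highest fold enrichment of a cluster in a list, or a peak in 1 list alone. The table held a start for 20 of the 38 members, so HOXB9, HOXB5, HOXC11 and other members are named only. Capitals mark CCAAT, the CCAAT box, or TGATNNAT, a composite HOX and PBX sequence, on either strand.
HOXA13 (chr7:27200042-27200341, minus strand): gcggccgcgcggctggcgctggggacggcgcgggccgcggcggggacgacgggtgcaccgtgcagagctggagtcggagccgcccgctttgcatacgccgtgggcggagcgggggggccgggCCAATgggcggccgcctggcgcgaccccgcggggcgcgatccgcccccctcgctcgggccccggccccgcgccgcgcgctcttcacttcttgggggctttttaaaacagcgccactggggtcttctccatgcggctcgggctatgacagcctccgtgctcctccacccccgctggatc
HOXC4 and HOXC5, with the same start (chr12:54016638-54016937, plus strand): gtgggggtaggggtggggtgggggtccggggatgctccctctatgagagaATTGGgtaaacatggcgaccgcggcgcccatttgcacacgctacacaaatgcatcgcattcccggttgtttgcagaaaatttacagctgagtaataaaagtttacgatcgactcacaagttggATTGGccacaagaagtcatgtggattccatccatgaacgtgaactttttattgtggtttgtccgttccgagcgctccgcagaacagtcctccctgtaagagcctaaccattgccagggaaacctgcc
HOXD1 (chr2:176188418-176188717, plus strand): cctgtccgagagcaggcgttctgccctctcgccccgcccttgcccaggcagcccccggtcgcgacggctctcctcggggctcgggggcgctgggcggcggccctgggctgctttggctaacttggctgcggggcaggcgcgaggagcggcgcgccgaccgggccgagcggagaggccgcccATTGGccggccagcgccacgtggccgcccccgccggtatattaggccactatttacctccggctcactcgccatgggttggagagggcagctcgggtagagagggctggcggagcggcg
HOXD4 (chr2:176151300-176151599, plus strand): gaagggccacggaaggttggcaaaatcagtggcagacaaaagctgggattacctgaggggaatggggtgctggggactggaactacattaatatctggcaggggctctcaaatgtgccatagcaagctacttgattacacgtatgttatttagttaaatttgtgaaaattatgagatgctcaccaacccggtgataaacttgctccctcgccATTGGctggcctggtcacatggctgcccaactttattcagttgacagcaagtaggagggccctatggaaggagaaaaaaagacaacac
HOXD11 (chr2:176107030-176107329, plus strand): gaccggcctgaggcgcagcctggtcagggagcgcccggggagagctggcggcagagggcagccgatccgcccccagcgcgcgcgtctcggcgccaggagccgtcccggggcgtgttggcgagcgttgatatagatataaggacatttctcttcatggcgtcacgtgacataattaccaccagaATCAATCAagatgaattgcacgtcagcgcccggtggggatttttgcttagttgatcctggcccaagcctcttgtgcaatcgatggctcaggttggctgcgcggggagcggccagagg
Peaks of both lists covered all 300 bases of the HOXA13, HOXC4 and HOXD1 promoters. At HOXD4 the control peak covered all 300 bases and the knockout peak bases 241 to 300. At HOXD11 the control peak covered bases 1 to 59 and no knockout peak reached the promoter. The capitals of HOXA13, HOXC4, HOXD1 and HOXD4 are CCAAT boxes, those of HOXC4 starting at bases 51 and 174, and those of HOXD11 are the composite HOX and PBX sequence, starting at base 184.

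Most HOX genes had no acetylated start in either genotype at a window of 1 kb, whereas 13 had none at 5 kb. Of the 38 members, 26 (68.4%) had no peak within 1 kb of a start in either list, against 35.5% of all protein-coding genes. The 26 comprised 9 of the 10 HOXA genes, 7 of the 10 HOXB genes, 4 of the 9 HOXC genes and 6 of the 9 HOXD genes. A peak was present in both lists at 9 members (23.7%), against 61.3% of all genes, in control alone at 2 (5.26%), against 1.66%, and in knockout alone at 1 (2.63%), against 1.50%. These members lie side by side and share peaks, so they are not independent: HOXC4, HOXC5 and HOXC6 share a start and were counted by the same peak. Where the table held no start, both ends of the gene were used. On this account HOXC11 and HOXB13 were counted by a peak at what is the 3′ end, if they are transcribed like the listed members of their clusters. With that orientation, 8 members had a start peak in both lists, HOXD11 in control alone, HOXB5 in knockout alone, and 28 in neither. HOXD3 is among the 26 and the 28 because its listed start lies inside the gene. Its lower end lay under a peak of both lists.

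**Figure D1:**
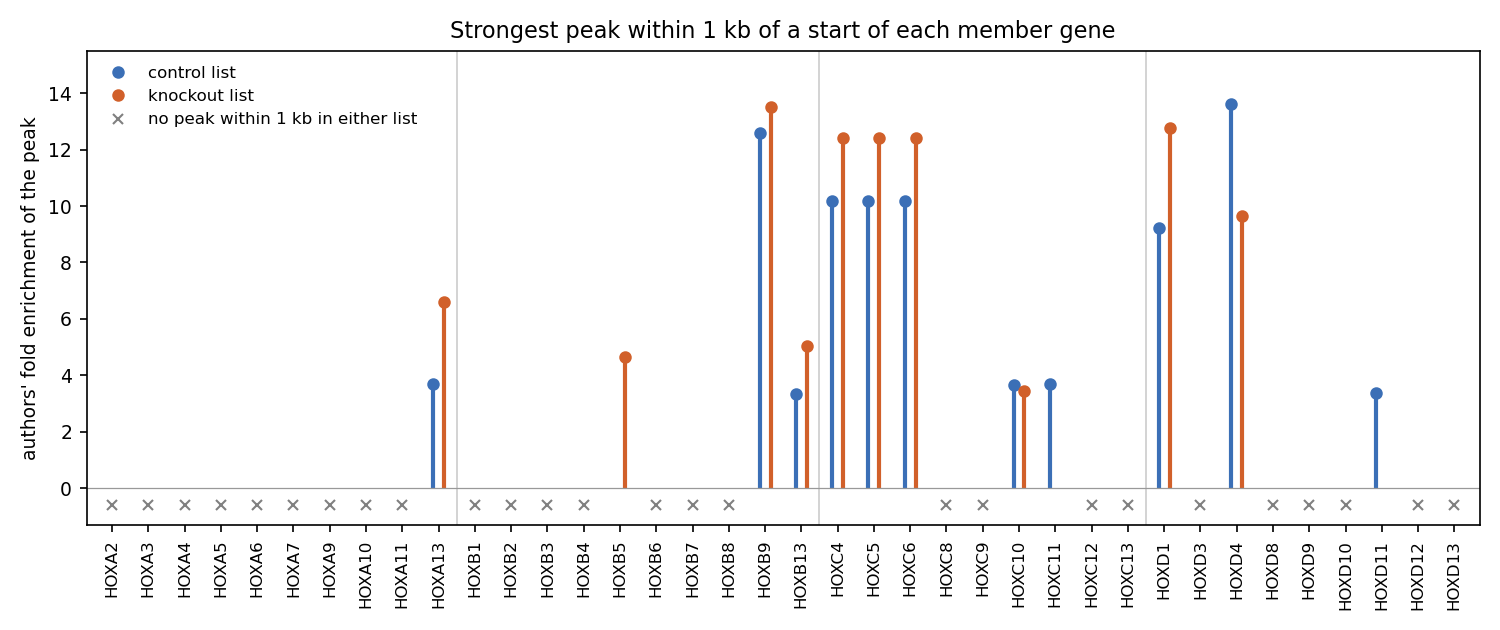
Fold enrichment (the authors' value over the background estimated from the input) of the strongest peak within 1 kb of a start of each of the 38 members, in the control list (blue) and the knockout list (orange); crosses mark members without such a peak. Of the 9 members with a peak in both lists, 4 lie in HOXC, 2 in HOXB and 2 in HOXD, and HOXA13 is the single HOXA gene among them. The peaks of HOXB13 and HOXC11 lie at the 3′ end by the orientation of their clusters.

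Acetylated starts were found among anterior, central and posterior genes. Of the 7 anterior members (groups 1 to 3), 1 had a start peak in both lists, HOXD1. Of the 15 central members (groups 4 to 8), 4 did, HOXC4, HOXC5, HOXC6 and HOXD4. Of the 16 posterior members (groups 9 to 13), 4 did, HOXB9, HOXC10, HOXA13 and HOXB13. By the orientation of its cluster HOXB13 was counted by a peak at its 3′ end and had none at its 5′ end. By the starts used, no member of groups 2, 3, 7, 8 or 12 had one in either list, though the lower end of HOXD3 lay under the HOXD4 peaks. Group 4 had 2 of its 4 members acetylated in both lists (HOXC4 and HOXD4) and 2 in neither (HOXA4 and HOXB4).

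The HOXA window had the lowest share of its length under peaks. Its window of 199.738 kb held 3.18 kb of control and 3.60 kb of knockout peaks, 1.59% and 1.80% of its length. For comparison, the stretch from 50 kb below to 50 kb above each protein-coding gene had a median of 4.69% covered in control (quartiles 1.60% and 10.1%) and 4.61% in knockout (1.65% and 9.48%), so that HOXA lay near the lower quartile in both lists. HOXB lay above the median in both lists, with 5.80% and 7.30%, and HOXC (5.24% and 4.07%) and HOXD (4.94% and 3.62%) above it in control and below it in knockout. Inside the member spans, without flanks, the control and knockout shares were 1.10% and 0.942% in HOXA and 4.10% and 5.55% in HOXB. They were 9.70% and 7.54% in HOXC, and 9.71% and 7.11% in HOXD. The region over the start of HOXA13, a posterior gene of limb and urogenital development, spanned chr7:27199873-27201676 and reached the start of HOTTIP, a long non-coding RNA transcribed away from it. The control peak there was 1355 bp long with a fold of 3.69, at percentile 31.7 of its list, and the knockout peak 1804 bp with a fold of 6.62, at percentile 58.7. Between HOXA7 and HOXA9 a shared region of 721 bp (chr7:27160639-27161359) had folds of 5.31 in control and 5.54 in knockout and lay 3.96 kb upstream of the HOXA7 start. The third shared region (chr7:27249063-27249663) lay 49.0 kb beyond HOXA13, past EVX1.

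Between these regions the HOXA genes lay in long stretches without peaks. In control the longest such stretch inside the cluster was 45.2 kb and contained HOXA4, HOXA5, HOXA6 and HOXA7. In knockout it was 60.3 kb, counted from the lower end of HOXA2, and also contained HOXA2 and HOXA3. The 50 kb flank below HOXA2 held no knockout peak, so the whole knockout stretch was longer. Inside the cluster the difference came from a control-only peak of 255 bp inside HOXA3 (chr7:27115194-27115448). That peak had a fold of 2.75 and a −log10 q of 1.38, near the lowest value in the list, 1.01. A second control-only peak of 282 bp (chr7:27080647-27080928, fold 3.06) lay 21.8 kb from the HOXA2 start, downstream of that gene and outside the span of the members. The knockout-only region of 618 bp (chr7:27235277-27235894, fold 4.07) lay 35.2 kb beyond HOXA13.

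With its flanks, the HOXB window had the largest covered length and was the longest. Control peaks covered 17.4 kb (5.80% of 300.225 kb) and knockout peaks 21.9 kb (7.30%), a ratio of 1.26. Inside the member spans, control peaks covered 8.203 kb in HOXB, less than the 11.374 kb in HOXC and 10.043 kb in HOXD. Knockout peaks covered 11.119 kb inside the HOXB member span, more than in HOXA, HOXC or HOXD. Of the 13 regions of the HOXB window, 9 were shared, 1 was control-only and 3 were knockout-only. The strongest start peak was at HOXB9, a posterior gene (chr17:48624933-48627620), with 2649 bp and a fold of 12.6 in control and 2292 bp and a fold of 13.5 in knockout. A region that lay over the part of HOXB3 near its upper end and over the long non-coding RNA HOXBLINC (chr17:48583776-48588256) had a control peak of 3472 bp (fold 7.41) and a knockout peak of 4454 bp (fold 11.5). It ended 1985 bp from the HOXB3 start, so HOXB3 was not counted as having an acetylated start. The longest region of all windows (chr17:48480909-48487928, 7020 bp) lay outside the member span, 43.1 kb below the HOXB1 start, with 6776 bp and a fold of 12.4 in control and 6986 bp and a fold of 18.2 in knockout.

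The region between HOXB1 and HOXB2 had the largest difference in length of the windows. At chr17:48535481-48538365, 4.47 kb upstream of the start of HOXB1, a hindbrain patterning gene, the control list had a peak of 727 bp and the knockout list a peak of 2885 bp, 3.97 times as long. The control peak had a fold of 3.86 (percentile 34.5 of its list) and a −log10 q of 6.60, and the knockout peak a fold of 14.3 (percentile 86.0) and a −log10 q of 104. Neither HOXB1 nor HOXB2 had a peak within 1 kb of a start in either list. Below HOXB1 lay 2 further shared regions with longer knockout peaks, chr17:48496433-48497948 (673 bp in control and 1516 bp in knockout) and chr17:48505484-48506656 (511 bp and 1077 bp). Over the 21 shared regions of all windows, knockout peaks were at least 2 times as long as control peaks in these 3 regions (14.3%), against 8.05% of all shared regions, and control peaks at least 2 times as long in 0, against 6.31%.

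The genotype-only regions of the HOXB window were short. The knockout-only peak over the start of HOXB5, a central gene (chr17:48593638-48594016), was 379 bp long with a fold of 4.64, at percentile 43.2 of its list, and a −log10 q of 11.1. It had the highest fold and the lowest q-value of the genotype-only regions of the windows. The nearest control peak lay 5.38 kb away. The other knockout-only peaks, at chr17:48490348-48490640 (fold 2.37) and chr17:48511385-48511625 (fold 2.52), lay below HOXB1 and were 293 and 241 bp long. The control-only peak (chr17:48618882-48619554, fold 2.97) lay 3.59 kb upstream of the HOXB8 start. The region counted for HOXB13, a posterior gene of prostate and hindgut (chr17:48723327-48724093), touched PRAC2 and lay 4.66 kb downstream of the HOXB13 start, with folds of 3.35 in control and 5.04 in knockout. Between it and a weak region near HOXB9 (chr17:48647271-48647746, folds 2.34 and 2.71) the list was empty for 75.9 kb in control and 75.7 kb in knockout, a stretch with no member gene.

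**Figure D2:**
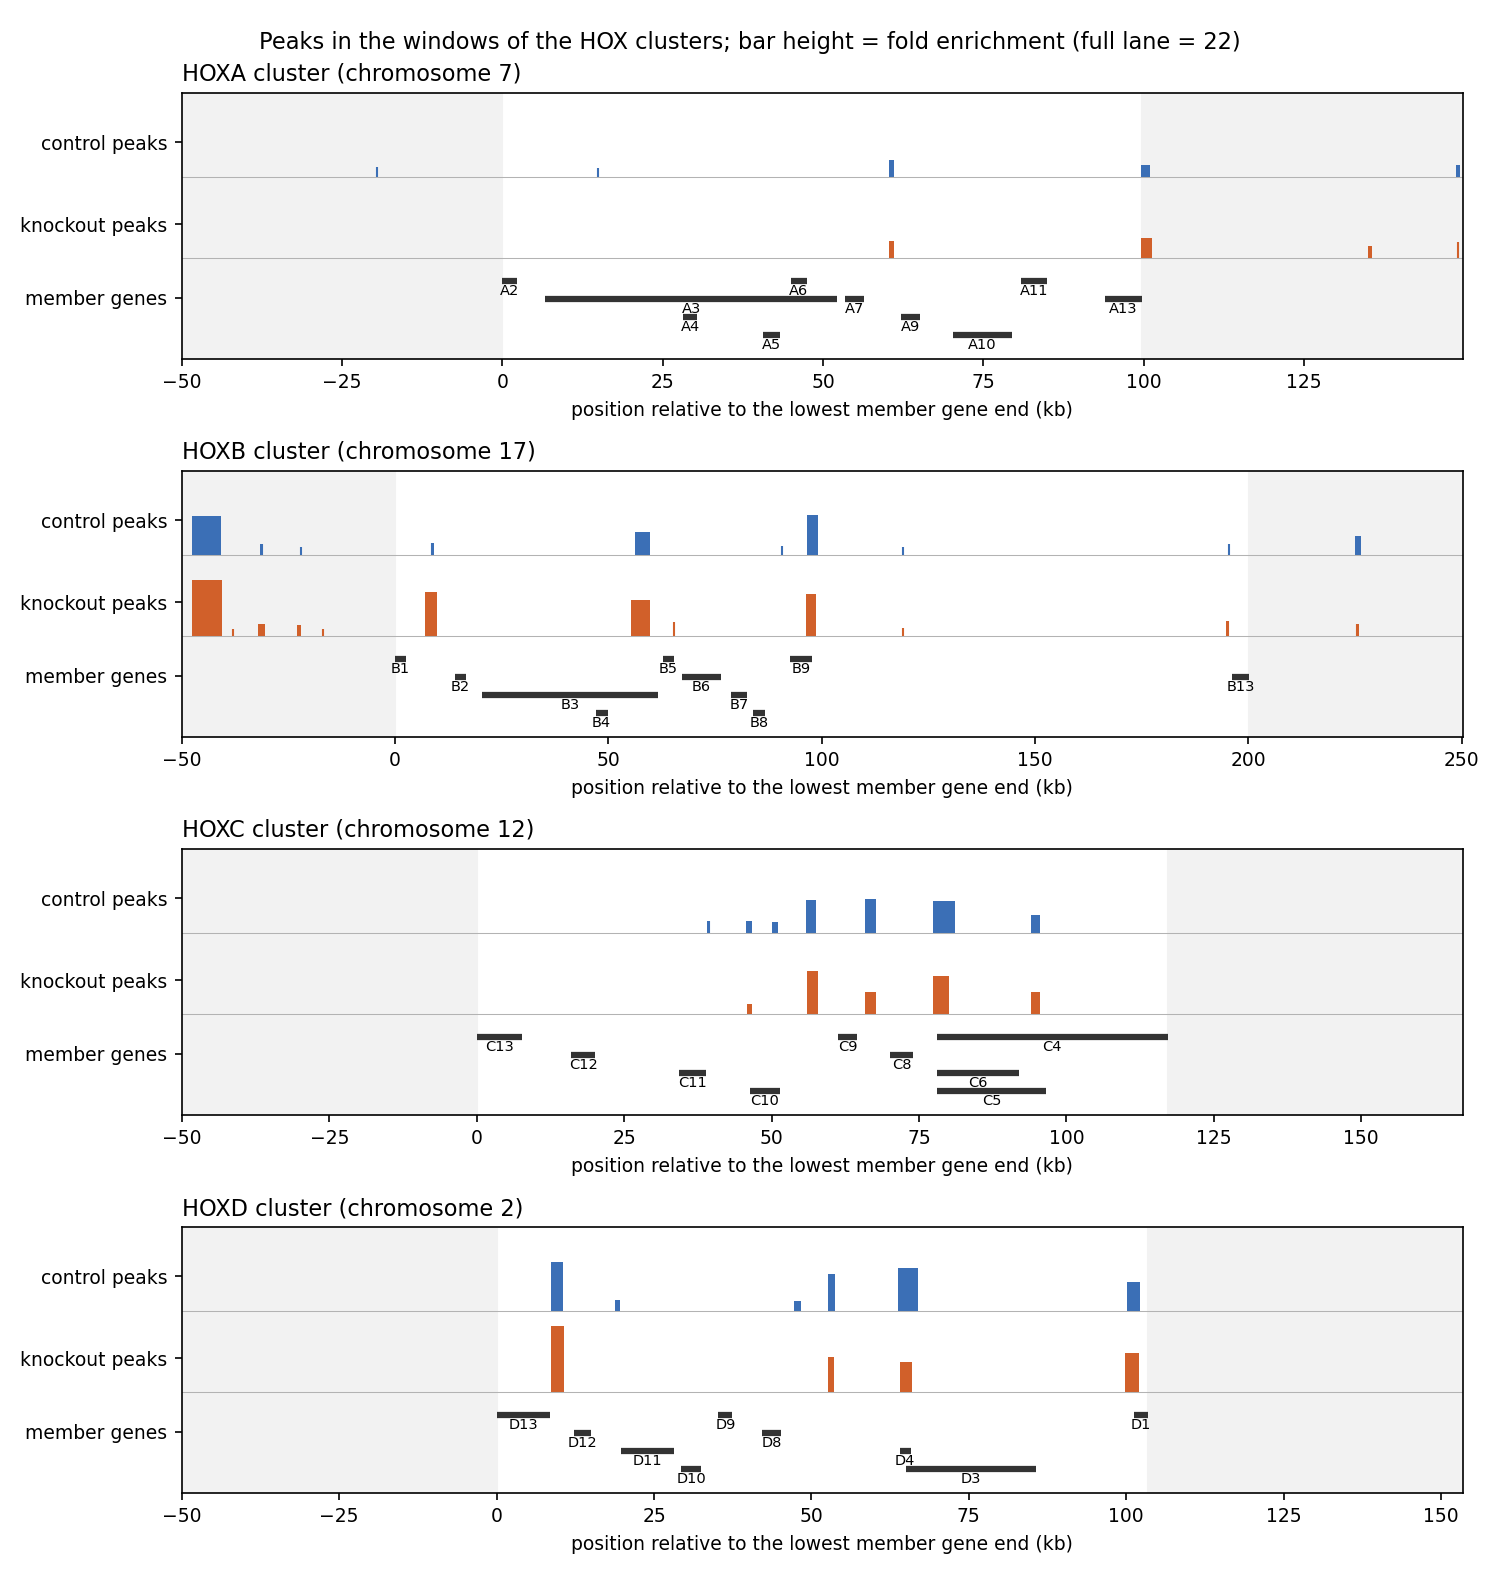
Maps of the 4 windows. The x axis gives the distance in kb from the lower end of the lowest member gene, with the 50 kb flanks in grey; bars are control (blue) and knockout (orange) peaks with width to scale, the narrowest thickened to be seen, and height in proportion to the authors' fold enrichment; black lines are the member genes, labelled without the prefix HOX. The HOXA lanes are nearly empty, and the knockout peak between HOXB1 and HOXB2 is 2885 bp long, against 727 bp in control.

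In the HOXC cluster the shared regions ran from the start of HOXC10 to the bodies of HOXC4 and HOXC5, and HOXC13 and HOXC12 at the posterior end had no peak nearby. Control peaks covered 11.4 kb of the window and knockout peaks 8.84 kb, a ratio of 0.777, and every peak lay inside the member span. Of the 7 regions, 5 were shared, 2 control-only and 0 knockout-only. The region at the start that HOXC4, HOXC5 and HOXC6 share (chr12:54016168-54020010) had a control peak of 3818 bp (fold 10.2, percentile 79.7) and a knockout peak of 2715 bp (fold 12.4, percentile 81.2). Its upper edge reached 54020010 in control and 54018882 in knockout, the largest difference in the cluster. The region 3.48 kb upstream of the HOXC9 start overlapped HOXC-AS2 (chr12:53994683-53996679) and had folds of 10.7 in control and 13.8 in knockout. The region 2.39 kb upstream of HOXC8 (chr12:54004640-54006599) had 1845 bp and a fold of 11.0 in control and 1960 bp and a fold of 7.07 in knockout. At the start of HOXC10 the peaks were weaker, 1019 bp in control (fold 3.67) and 694 bp in knockout (fold 3.46).

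The control-only regions of HOXC lay between HOXC11 and HOXC10 and inside HOXC10. The region of 505 bp just beyond HOXC11 (chr12:53977936-53978440) had a fold of 3.71, at percentile 32.1, and the region of 948 bp inside HOXC10 (chr12:53988971-53989918) a fold of 3.43, at percentile 26.6. The nearest knockout peaks lay 6.32 and 3.52 kb away. HOXC13, HOXC12 and HOXC11, the posterior end of the cluster, lay in a stretch without peaks. Counted from the lower end of HOXC13, it measured 39.1 kb in control and 45.9 kb in knockout. The 50 kb flank below HOXC13 held no peak in either list, so the whole stretch was longer. HOTAIR, a long non-coding RNA gene that overlaps the start of HOXC11, had no peak in either list, with the nearest 2.98 kb away in control and 9.80 kb in knockout.

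The HOXD cluster was acetylated at its ends and around HOXD4. Control peaks covered 10043 bp and knockout peaks 7357 bp, a ratio of 0.733, and of the 6 regions 4 were shared, 2 control-only and 0 knockout-only. The region between HOXD13 and HOXD12 (chr2:176096044-176098197) had the highest fold of the windows in each list, 15.7 in control (percentile 94.5) and 21.4 in knockout (percentile 96.2), over 1990 and 2131 bp. It lay 1.60 kb upstream of the HOXD12 start, so that neither gene had a peak within 1 kb of its start. At HOXD4, a central gene whose promoter is printed above, the control peak was 3114 bp long (fold 13.6) and the knockout peak 1910 bp (fold 9.65), and both covered the whole gene (chr2:176151280-176154393 for the merged region). At HOXD1, the anterior end (chr2:176187232-176189661), the peaks were 2057 bp (fold 9.23) and 2351 bp (fold 12.8). Those peaks also covered MIR7704 and the start of HAGLR, a long non-coding RNA gene. A region upstream of HOXD4 (chr2:176140149-176141147) had peaks of 999 bp in control and 965 bp in knockout, with folds of 11.9 and 11.4.

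The control-only regions of HOXD lay near HOXD11 and HOXD8. The region of 802 bp at chr2:176106287-176107088 ended 192 bp before the start of HOXD11, a posterior gene of limb development, with a fold of 3.38, at percentile 25.6. The nearest knockout peak lay 8.09 kb away. The region of 1081 bp at chr2:176134717-176135797 overlapped HOXD-AS2, 5.01 kb beyond the HOXD8 start, with a fold of 3.20. Without these, the knockout list was empty for 41.966 kb, a stretch containing HOXD12, HOXD11, HOXD10, HOXD9 and HOXD8.

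Over all windows the share of shared regions was close to that of the genome. The share of control-only regions was higher and that of knockout-only regions lower. Of the 32 regions, 21 were shared (65.6%; exact binomial 95% interval 46.8 to 81.4), against 65.7% of all regions. Control-only regions numbered 7 (21.9%; 9.28 to 40.0), against 14.7%, and knockout-only regions 4 (12.5%; 3.51 to 29.0), against 19.6%. The genome's shares lie inside these intervals, which cover counting error only. All 4 knockout-only regions lay in HOXA and HOXB, and 4 of the 7 control-only regions in HOXC and HOXD. Inside the member spans there were 16 shared, 6 control-only and 1 knockout-only regions, the last being that of HOXB5. Covered sequence came to 41998 bp in control and 41697 bp in knockout, a ratio of 0.993, with the ratio above 1 in HOXA and HOXB and below 1 in HOXC and HOXD. The HOXA difference, 418 bp more in knockout, turned to −155 bp inside the member span. The total, −301 bp, turned to 7455 bp with a −log10 q of at least 5 and to 772 bp with windows reaching 100 kb.

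**Figure D3:**
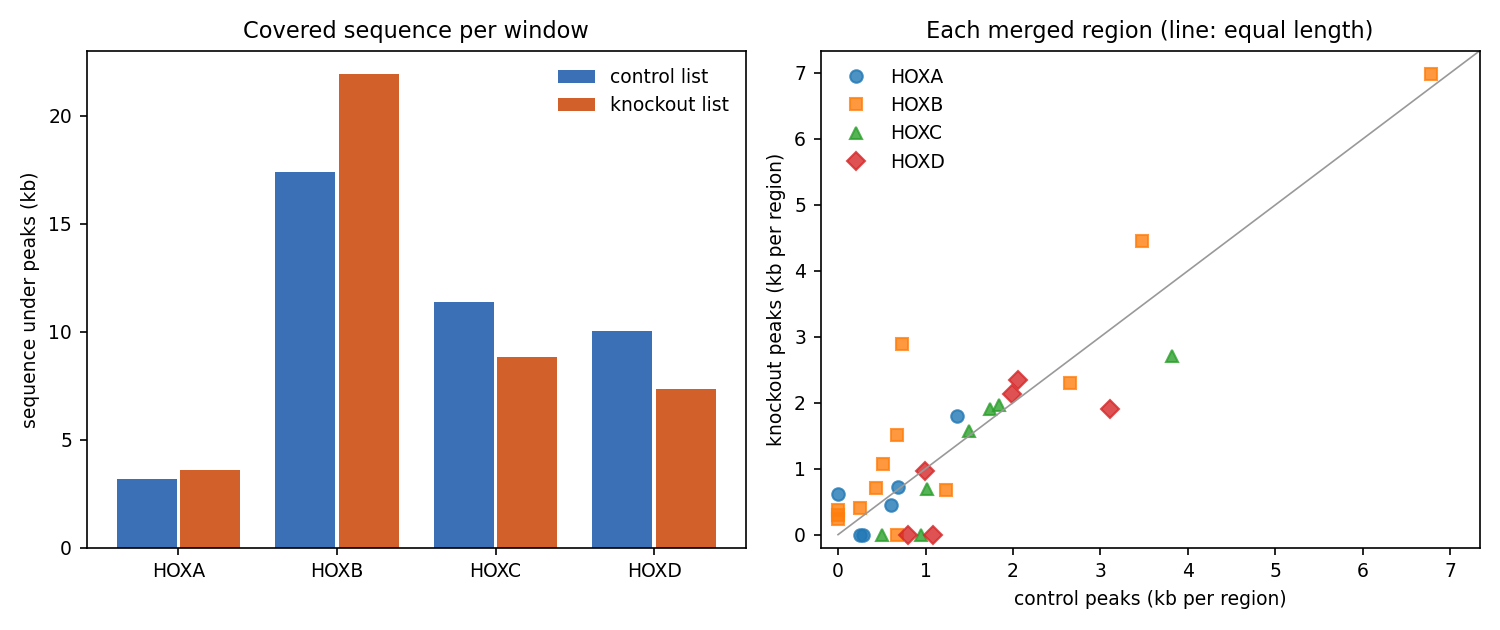
Left, sequence under peaks in kb in each window, control (blue) and knockout (orange). Right, each of the 32 merged regions by its control and knockout peak length in kb, with marker shape and colour for the cluster and a line of equal length; regions of 1 genotype lie on an axis. Knockout peaks covered more in HOXA and HOXB and control peaks more in HOXC and HOXD, though inside the HOXA member span the difference turned to −155 bp.

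Sharing in the HOX windows went with peak strength, as in the genome. Genotype-only regions were weak in their own lists: the 7 control-only regions had folds from 2.75 to 3.71, none above percentile 32.1, and the 4 knockout-only regions folds from 2.37 to 4.64, none above percentile 43.2. Regions with a best peak above the median fold of its list numbered 16, and all were shared, against 95.7% of such regions in the genome, where 1.29% were control-only and 3.06% knockout-only. Of the 16 with weaker peaks, 5 were shared, 7 control-only and 4 knockout-only, against 37.6%, 27.3% and 35.1% of the genome's. Shared regions had a median length of 1804 bp, control-only regions 673 bp and knockout-only regions 336 bp, against 2135, 673 and 765 bp over the genome. A shared region was scored by the best peak of both lists, and its length joins the peaks of both. Both measures therefore favour shared regions by construction, here and in the genome. Among the 21 shared regions knockout peaks were longer in 14 (66.7%), against 50.6% of all shared regions, and control peaks longer in 7. No peak of either list in these windows was wider than 10 kb, the longest being 6776 bp in control and 6986 bp in knockout.

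**Figure D4:**
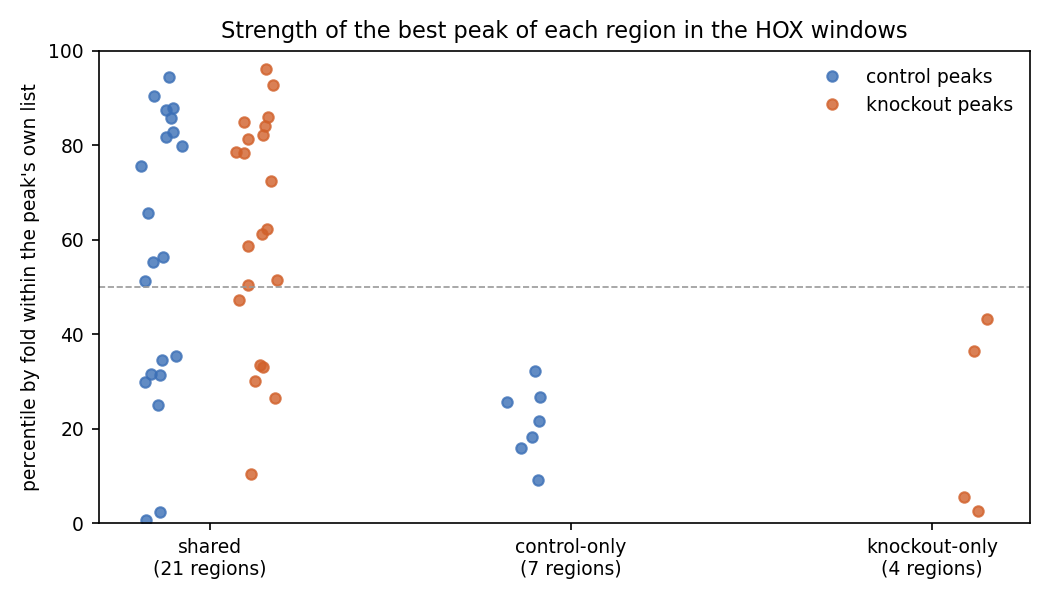
Percentile by fold enrichment within its own list of the best control (blue) and knockout (orange) peak of each region, by class; the dashed line marks the median of a list, and points are spread sideways at random for legibility. Every genotype-only region lies below the line, whereas shared regions reach percentile 96.2.

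Regions were also placed by the member genes alone, without regard to the starts of other genes. Taking the 5′ end of each member by the orientation of its cluster, 8 of the 32 regions lay within 1 kb of a member start (6 shared, 1 control-only, 1 knockout-only), 4 touched the body of a member elsewhere (2 shared, 2 control-only) and 20 lay between or beyond the members (13 shared, 4 control-only, 3 knockout-only). A peak touched the gene body of 10 members in both lists, against 68.0% of all genes, of HOXA3 in control alone, against 2.17%, and of HOXB5 in knockout alone, against 1.82%. HOXD3 and HOXB3 were the members with a peak in the body in both lists and none within 1 kb of a start used here. For HOXD3 the only start in the RefSeq table, 176157307, lies inside the gene. The lower end of HOXD3 (176152529), the upstream one on the plus strand, lay under the HOXD4 peaks of both lists. The median distance from a member's 5′ end to the nearest peak was 12.7 kb in control and 12.9 kb in knockout for HOXA, 5.69 and 5.07 kb for HOXB, 2.49 and 2.39 kb for HOXC, and 2.91 and 3.86 kb for HOXD.

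The clusters also hold microRNA genes, of which miR-10 and miR-196 are known to target HOX transcripts. The mature sequences below, from RefSeq, show the seed (bases 2 to 8, in capitals) of miR-196 in its 3 clusters, of miR-10a-5p and of those that lie under a peak. The sequence of miR-10b-5p was not used here, so the miR-10 seeds of HOXB and HOXD were not compared.
miR-196a-5p (MIR196A1 in HOXB and MIR196A2 in HOXC): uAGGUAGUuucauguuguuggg
miR-196b-5p (MIR196B in HOXA): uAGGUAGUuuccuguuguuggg
miR-10a-5p (MIR10A in HOXB): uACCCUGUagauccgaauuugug
miR-615-5p (MIR615 in HOXC): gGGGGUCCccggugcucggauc
miR-615-3p (MIR615 in HOXC): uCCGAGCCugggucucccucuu
miR-7704 (MIR7704 in HOXD): cGGGGUCGgcggcgacgug
The miR-196 genes of 3 clusters encode the seed AGGUAGU, and none lay under a peak: the nearest was 8.13 kb away in control and 8.12 kb in knockout for MIR196B, 4.87 and 5.27 kb for MIR196A1, and 1.82 and 2.93 kb for MIR196A2. MIR10A lay 4.84 kb from a control and 3.83 kb from a knockout peak. MIR10B lay 868 bp from the control and 1128 bp from the knockout peak of HOXD4, the same merged region. MIR615, inside HOXC5, lay under a shared region (chr12:54032832-54034395) with folds of 5.83 in control and 7.30 in knockout, and MIR7704 under that of HOXD1. MIR3185, beside HOXB13, lay 315 bp from the control and 376 bp from the knockout peak counted for that gene, at its 3′ end by the orientation of its cluster.

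A chosen list of long non-coding and microRNA genes of the clusters, which leaves out MIR7704, MIR3185 and HOXBLINC among others, had 24 genes in the gene table. Of these, 5 had a peak within 1 kb of a start in both lists (HOTTIP, HOXC-AS2, HOXC-AS3, MIR615 and HAGLR), MIR10B in control alone and 18 in neither. The partners and regulators of HOX proteins were set beside the 61.3% of all protein-coding genes, and the 23.7% of HOX genes, with a start peak in both lists. Of the 9 TALE homeodomain cofactors, which bind DNA together with HOX proteins, 8 had a start peak in both lists, among them PBX3 (fold 12.9 in control and 18.4 in knockout) and MEIS2 (13.7 and 17.7), and PKNOX2 had none in either. All 8 trithorax and elongation genes, which keep HOX genes active, had one in both lists, such as KMT2B (17.6 and 26.6). So did all 10 genes of the Polycomb complex PRC1, such as BMI1 (13.2 and 26.4) and PCGF2 (19.7 and 20.5). Of the 8 ParaHOX and linked homeobox genes, 1 had a start peak in both lists, GSX2 (2.75 and 5.08), and 7 in neither, including EVX1 beside HOXA and EVX2 beside HOXD. No gene of these 4 lists had a start peak in 1 list alone.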

How the data were processed

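H3K27ac was profiled by chromatin immunoprecipitation and sequencing. The submitters' processing notes name Bowtie2 2.3.5.1, MACS2 2.2.6 and the hg38 build. Options, read filters and whether replicates were pooled are not given in the sources used here. Each peak of the authors' lists has, per the file headers, a position, a length, a pileup (a coverage signal), a fold enrichment (a ratio) and a −log10 q-value, and the p-values beside them were not used. List names gave the genotype. Fold is relative to each list's own background and serves only to rank peaks within a list. The control list starts at a −log10 q of 1.01 and the knockout list at 1.00.

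Unplaced sequences, with 6 control and 8 knockout peaks, were left out. Regions and covered lengths were computed with pandas 2.3.3, scipy 1.17.1 and numpy 2.4.6 under Python 3.11.15, by code tested on simulated peaks, and drawn with matplotlib 3.10.9. Lengths are clipped to the windows. Gene positions, starts and sequences are those of RefSeq on GRCh38.p14, the assembly of hg38. Starts were known for 15813 of 19974 protein-coding genes, and both gene ends were used for the others. Percentiles rank a peak's fold within its list, and intervals are Clopper-Pearson at 95%. Named were every member with a start peak in 1 list alone, the highest start folds of each cluster, every genotype-only region and the longest and most different shared regions. Alternatives were a −log10 q of at least 5, equal list lengths, other windows and other overlaps. Members and lists were chosen with earlier results of these data known. A further marker list is not reported here.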

Additional observations from a re-analysis of the deposited data

How the results depend on the processing

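No paired analysis was possible because each list is 1 per genotype, and no replicate could be left out for the same reason. With a −log10 q of at least 5, which left 26745 control and 31598 knockout peaks and so removed more of the control list, control-only regions numbered 0 and knockout-only regions 7. The genome's class shares at this cut and at equal list lengths are not given here, so these counts are not read as a trait of the HOX windows. The knockout minus control difference in covered sequence was then 2911 bp in HOXA, −758 bp in HOXC, −803 bp in HOXD and, turned in sign, 7455 bp over the 4 clusters (−301 bp with all peaks). Start peaks were then left at 0 members in control alone and 3 in knockout alone (HOXB5, HOXA13 and, by its 3′ end, HOXB13). With equal list lengths, knockout-only regions numbered 2 and the difference over the 4 clusters was −835 bp. With windows ending at the outermost members, knockout-only regions numbered 1, and the difference was −155 bp in HOXA (turned, from 418 bp), 2916 bp in HOXB (from 4503 bp) and −2461 bp in all. With windows reaching 100 kb it was 901 bp in HOXA, −4061 bp in HOXC (from −2536 bp) and 772 bp in all, again turned. With start windows of 2 kb, 4 members had a peak in control alone and 2 in knockout alone. With windows of 5 kb, 18 members were acetylated in both lists, 13 in neither, 4 only in control and 3 only in knockout. The shares of all protein-coding genes at 2 kb, at 5 kb, at the q cut and by 5′ end are not given here. These counts of members therefore have no background. By gene body, and by the 5′ end (chosen after seeing the data), 1 member had a peak in control alone. The signs of the HOXB, HOXC and HOXD differences were the same under the 4 alternatives run for them, and shared regions numbered 14 to 29 under the 6 run for them. For other changes the cause was not tested. The unknown depth limits what a missing peak means.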

Other observations

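The listed promoters of the HOX genes, mostly of HOXA and HOXD, more often held a CCAAT box than promoters in general. Starts were listed for 9 of 10 HOXA, 1 of 10 HOXB, 2 of 9 HOXC and 8 of 9 HOXD genes. CCAAT occurred on either strand in 17 of the 26 different promoter windows of members in the RefSeq table (65.4%), against 34.6% of all 35116 promoters of the same length. The composite HOX and PBX sequence TGATNNAT occurred in 3 of the 26, those of HOXA2, HOXB1 and HOXD11 (11.5%, against 2598 of 35116 promoters), and TGANTCA, the AP-1 sequence, in 0, against 7.71%. A gene can hold several of these windows, as HOXA3 holds 7, so they are not independent. Of the 3 members with TGATNNAT, HOXD11 alone had a peak within 1 kb of its start, in the control list. The member promoters had a median of 22.5 CpG dinucleotides, against 14 over all promoters, with a median GC content of 58.0% against 58.7%.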
